A study of Mus musculus with 2 samples.

Results

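The enzymes that make serine and pass its carbon into the folate cycle were described here as a set of 8 genes, out of 14150 genes measured on the arrays. The serine-making genes are Phgdh, Psat1 and Psph, and the folate genes are Shmt1, Shmt2, Mthfd1, Mthfd2 and Mthfd1l. Members were the probes annotated to exactly 1 gene whose symbol is on this list and that had a value on both arrays. Each of the 8 genes had 1 such probe, and 0 further probes listed a member beside other genes. The set was chosen by the measured values themselves, for lying towards the negative side of the ratio, so its position on that side is given as a description with no test.

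The study compared effector CD8+ T cells of the pmel mouse, which carries a transgenic T cell receptor against a melanocyte antigen, after 1 and after 2 in vitro stimulations. Both stages were hybridised together, as total RNA, on a 2-channel microarray: channel 1 held RNA of cells stimulated 1 time and channel 2 that of cells stimulated 2 times. The series has 2 arrays, of which array 2 is labelled a repeat, and no other group. The labels used here do not give the strain, sex or age of the mice, the stimulus, its timing, or whether animals were pooled. They also leave unsaid whether the repeat was a new culture, so the spread between the arrays may be technical only.

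Phgdh, Psat1 and Psph act in turn on 3-phosphoglycerate, an intermediate of glycolysis, to give serine. SHMT enzymes then move a carbon unit from serine to tetrahydrofolate and release glycine, SHMT1 mainly in the cytosol and SHMT2 in mitochondria. In mitochondria MTHFD2 and MTHFD1L oxidise that unit and release it as formate, and in the cytosol MTHFD1 loads formate back onto folate for purine and thymidylate synthesis. Dividing T cells are known to use this route for nucleotides.

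The deposited values are signed log ratios, used here as log2. No source used here states their base or which channel is the numerator. If the ratio follows the order of the titles and channels, it is 1 stimulation over 2 stimulations, and a negative value stands for more RNA after 2 stimulations. If the order is the reverse, so are the sides. Each array was centred near 0, with a median of -0.02 over all genes for the mean of both arrays, so a shift of all RNA between stages would not be seen. Both arrays held the stages in the same channels, and a dye bias of a probe cannot be told apart from a difference in RNA. In bulk RNA, more cells with a transcript and more transcript per cell cannot be told apart either. The ratios say nothing of absolute levels, so whether the cells express defining CD8 T cell markers could not be checked.

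Among the serine-making genes, Psat1 lay farthest on the negative side, Phgdh moderately so, and Psph near 0. Psat1, the aminotransferase of the pathway, read -1.28 on array 1 and -1.79 on array 2. Its mean log2 ratio was -1.53 ± 0.36 (SD, n = 2), a 2.9-fold difference between the stages, and 39 of the 14150 genes had a lower mean. It was at least 2-fold from a ratio of 1 on both arrays. Folds assume base 2. Read as natural logs, the mean of Psat1 would be 4.64-fold, that of Shmt1 4.1-fold and that of Mthfd1 3.84-fold.

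Phgdh, the dehydrogenase that opens the pathway, read -0.56 and -0.51 on arrays 1 and 2. The mean log2 ratio was -0.54 ± 0.04 (SD, n = 2), or 1.45-fold, with 7.22% of all genes lower. The arrays were close for this gene, since 89.7% of genes differed at least as much between them. Psph, the phosphatase of the last step, was at 0.14 on array 1 and -0.44 on array 2. Its sign turned between the arrays, and the mean log2 ratio of -0.15 ± 0.41 (SD, n = 2) was smaller than its spread. The log2 ratio of Psat1 was thus lower than that of Phgdh by 0.72 on array 1 and 1.28 on array 2, and lower than that of Psph by 1.42 and 1.35.

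The pair of serine hydroxymethyltransferases lay below 0 on each array, with a wide gap between the arrays. Shmt1, the cytosolic enzyme, read -0.80 on array 1 and -2.02 on array 2, a mean log2 ratio of -1.41 ± 0.86 (SD, n = 2) and 2.66-fold. Array 2 lay 1.22 log2 units below array 1, a gap that 1.36% of genes reached. Shmt2, the mitochondrial form, read -0.52 and -1.47 on the 2 arrays, a mean log2 ratio of -0.99 ± 0.67 (SD, n = 2) and 1.99-fold, with a gap that 3.31% of genes reached. Shmt1 was the lower of the pair on each array, by 0.28 and 0.55. These differences are smaller than the spread of either gene between arrays. The 2 genes are paralogs, and how far their probes are specific was not tested.

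Of the MTHFD genes, Mthfd1 stood apart from the mitochondrial ones. Mthfd1, the multifunctional cytosolic enzyme, read -1.39 on array 1 and -1.30 on array 2. The mean log2 ratio was -1.34 ± 0.06 (SD, n = 2), a 2.54-fold difference that repeated closely, and 65 genes had a lower mean. Mthfd2, the mitochondrial dehydrogenase and cyclohydrolase, read -0.38 and -0.71, a mean log2 ratio of -0.55 ± 0.23 (SD, n = 2) and 1.46-fold. Mthfd1l, the mitochondrial formate-producing synthetase, read -0.44 and 0.00, a mean log2 ratio of -0.22 ± 0.31 (SD, n = 2). Mthfd1l was therefore negative on array 1 only, and its mean lay within its spread.

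**Figure D1:**
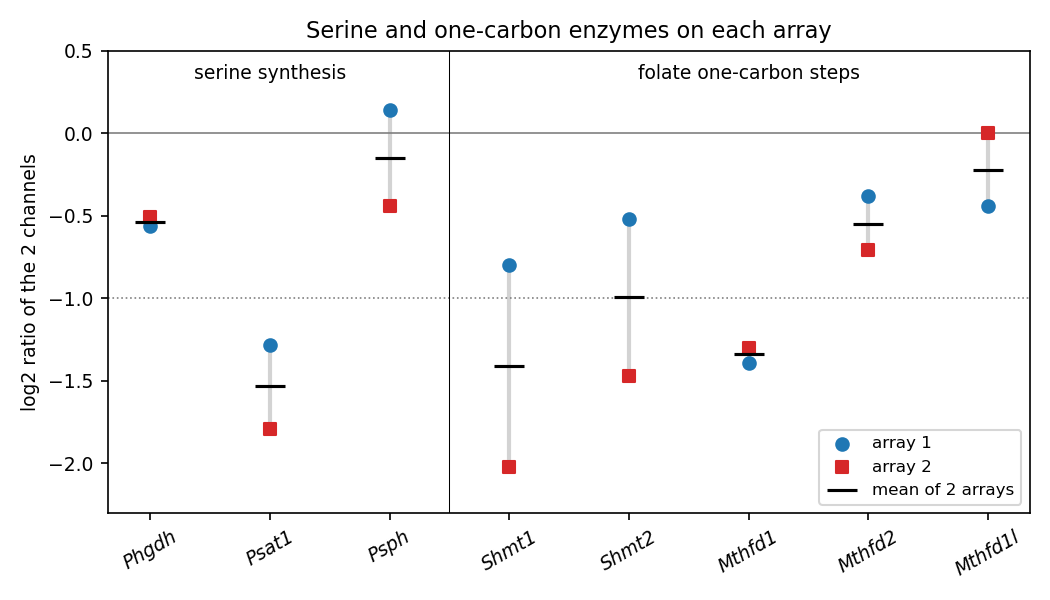
Log2 ratio of the 2 channels (vertical axis) of each of the 8 enzymes, as a circle for array 1, a square for array 2 and a bar for their mean, with a dotted line at 2-fold on the negative side. Psat1 and Mthfd1 lie beyond that line on both arrays, Shmt1 and Shmt2 on array 2 only, and the pairs of Psph and Mthfd1l reach 0 or above.

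By cell compartment, the cytosolic folate genes Shmt1 and Mthfd1 had a median log2 ratio of -1.38, and the mitochondrial Shmt2, Mthfd2 and Mthfd1l of -0.55. On array 1 both cytosolic genes lay below every mitochondrial one. On array 2 the groups overlapped, since Shmt2 at -1.47 was below Mthfd1 at -1.30. With 2 and 3 genes this is a description of these probes and not of the compartments.

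Over the whole set, 6 of the 8 lay below 0 on each array and 0 lay above 0 on each, where 33.6% of all 14150 genes lay below and 29.6% above. The exceptions were Psph and Mthfd1l. The median log2 ratio of the set was -0.77, with -0.54 on array 1 and -1.0 on array 2, against -0.02 over all genes. Of the 8, 2 were at least 2-fold below a ratio of 1 on each array, Psat1 and Mthfd1, against 0.721% of all genes, and 0 were as far above it, against 0.233%. With natural logs Shmt1 would join them, giving 3 of the 8 against 2.04% of all genes. Psat1, Shmt1 and Mthfd1 were among the 141 genes that make up the lowest 1% by mean. These counts share the contrast that chose the set and support nothing beyond it.

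On array 2, 4 of the 8 genes were at least 2-fold on the negative side, against 2 on array 1. Over all genes the shares were 3.09% and 1.56%, in about the same proportion. The genes past 2-fold on array 2 but not on array 1 were Shmt1 and Shmt2. No probe of the 21427 tested passed limma's test at an adjusted p of 0.05 (0% called), and 3186 had an unadjusted p under 0.05. With 1 residual degree of freedom per probe, the genes are described by size and by repetition on the 2 arrays.

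**Figure D2:**
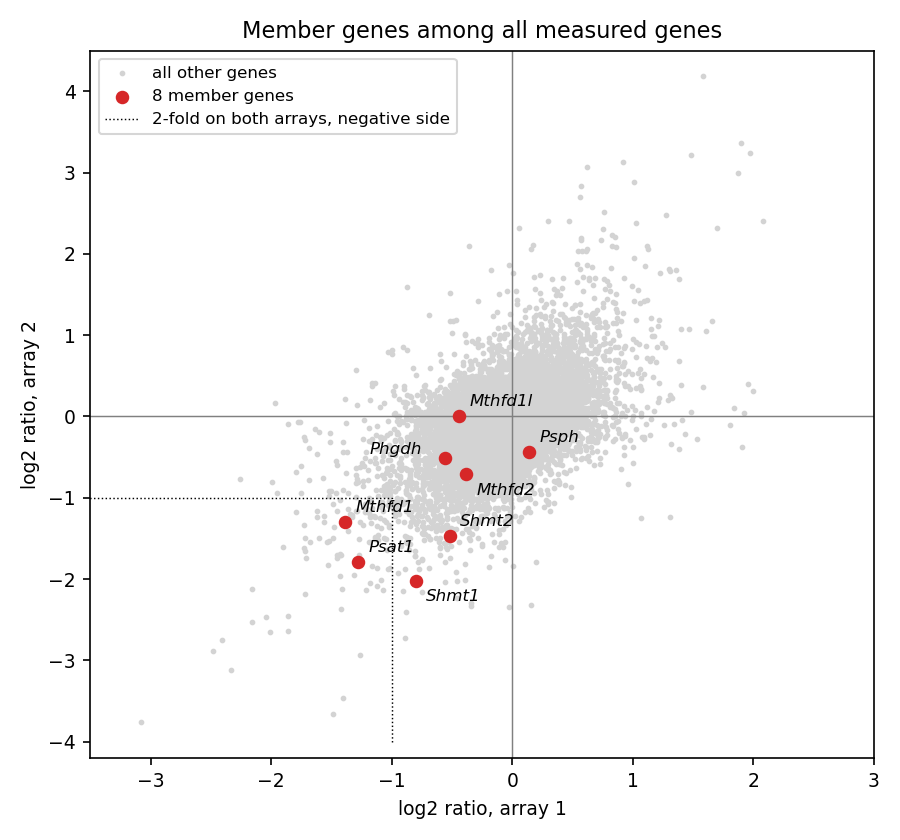
Log2 ratio on array 1 (horizontal axis) against array 2 (vertical axis) for all 14150 genes in grey and the 8 enzymes in red, with the dotted corner marking at least 2-fold below a ratio of 1 on each array. Psat1 and Mthfd1 lie inside the corner, Shmt1 and Shmt2 to its right at the edge of the cloud, and the other members within the cloud.

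The 8 genes lie on 7 chromosomes, with Shmt2 and Mthfd1l both on chromosome 10 but far apart. Psat1 spans chr19:15905123-15925059, Shmt1 chr11:60788897-60811265, Shmt2 chr10:127517123-127522444 and Mthfd1 chr12:76254406-76319820 in GRCm38.p6, by the RefSeq gene table. Phgdh lies on chromosome 3, Psph on chromosome 5 and Mthfd2 on chromosome 6. All 8 members were matched by Entrez ID and symbol, and no source used here says which exon or UTR a probe covers.

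The 250 bases before the start site are shown for Psat1, the member with the lowest mean of the 2 arrays, and for the paralogs Shmt1 and Shmt2, whose upstream windows do not overlap an annotated gene. They are RefSeq sequences of GRCm38.p6, each read 5′ to 3′ on the minus strand, at chr19:15925060-15925309, chr11:60811266-60811515 and chr10:127522445-127522694. Capitals mark matches on either strand to the motifs described after them, and where 2 matches overlap they run together.
Psat1: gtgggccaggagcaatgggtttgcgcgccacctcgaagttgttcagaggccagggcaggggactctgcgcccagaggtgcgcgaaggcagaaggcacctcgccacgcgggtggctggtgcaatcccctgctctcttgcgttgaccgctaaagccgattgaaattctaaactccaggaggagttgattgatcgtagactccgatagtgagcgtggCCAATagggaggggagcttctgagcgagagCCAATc
Shmt1: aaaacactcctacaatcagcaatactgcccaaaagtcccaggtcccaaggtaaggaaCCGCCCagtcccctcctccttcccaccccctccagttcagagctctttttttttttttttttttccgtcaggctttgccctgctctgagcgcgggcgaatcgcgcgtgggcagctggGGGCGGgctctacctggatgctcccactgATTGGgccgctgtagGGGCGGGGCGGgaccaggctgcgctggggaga
Shmt2: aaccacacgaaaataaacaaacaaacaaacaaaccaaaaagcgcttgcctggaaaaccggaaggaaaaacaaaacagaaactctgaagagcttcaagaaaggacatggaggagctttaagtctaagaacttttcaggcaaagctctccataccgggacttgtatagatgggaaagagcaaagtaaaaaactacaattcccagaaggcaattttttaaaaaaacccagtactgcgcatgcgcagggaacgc

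Motifs were searched on both strands of the 9 upstream windows of the 8 genes (Psat1 has 2) and in 32817 upstream windows of the same length. The windows of Psph, Mthfd1, Mthfd2 and Mthfd1l and the Psat1 window not printed above overlap the annotated span of their own gene. That of Psph also overlaps Cct6a. Matches in these windows may lie inside a gene. The CCAAT box, searched as CCAAT, was found in 6 of the 9 windows and in 33.8% of all windows. The 6 genes were Phgdh, Psat1, Psph, Shmt1, Mthfd1 and Mthfd2. In the Psat1 window printed above matches begin 36 and 6 bases before the start, and in Shmt1 a match begins at 47, on the opposite strand. The GC box GGGCGG was in 5 of the 9 windows, of Psat1, Psph, Shmt1, Mthfd1 and Mthfd1l, and in 32.7% of all. Shmt1 held 4 matches, a pair of them overlapping, and Psat1 1 in its other window. GC content of the 9 windows ran from 40.8% for Shmt2 to 67.2% for Psph, against a median of 52.4% over all windows.

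The E-box CACGTG, a sequence that MYC can bind, was in 0 of the 9 windows and in 6.02% of all. TGATGNAAN, a form of the element bound by ATF4, was in 0 of the 9 and in 3.44% of all. The E2F sequence TTTNNCGC was in the Psph window alone, which also overlaps Cct6a, and in 4.28% of all. Shmt2 held none of the 5 motifs. A match is only a match of letters, and a window without one says nothing of sites elsewhere.

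Around the 8 enzymes, 94 other genes of serine, glycine, folate, methionine, glutathione and nucleotide metabolism, of the amino acid response and of glycolysis near 3-phosphoglycerate were measured, in 9 lists. Of the 94, 44 (46.8%) lay below 0 on each array and 21 above, and 2 were at least 2-fold below while 0 were 2-fold above. Their median log2 ratio was -0.25, or -0.22 without replicate 1 and -0.15 without replicate 2, and 0 passed limma's test. Over all 14150 genes, 33.6% lay below 0 on each array and 29.6% above, 0.721% were at least 2-fold below and 0.233% above. These shares are the background for the counts of every list below. The lists differed from each other in how far they lay from 0.

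The other genes of the folate cycle and of folate transport lay around 0. Of 11 measured, 4 lay below 0 and 4 above 0 on each array, with a median log2 ratio of -0.01. Those below were Fpgs, Ggh, Mtfmt and Tyms, and those above Aldh1l1, Folr1, Izumo1r and Slc19a1. No intensities were used, so whether the cells express each gene of this list could not be checked. The share below was 36.4%, near the 33.6% of all genes. Tyms, the thymidylate synthase that consumes folate-bound carbon, read -0.16 and -0.41. The lowest of the list was Ggh, a hydrolase of folate polyglutamates, with a mean log2 ratio of -0.31 ± 0.33 (SD, n = 2), and the highest was Izumo1r, a folate receptor family gene, with 0.35 ± 0.16 (SD, n = 2). Mthfd2l and Slc25a32 were not analysed here, since no probe carried their symbol alone with both values.

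In the glycine list, Gcsh stood far from the rest. Gcsh, the lipoyl-carrying H protein of the mitochondrial glycine cleavage system, read -0.95 on array 1 and -1.92 on array 2, a mean log2 ratio of -1.44 ± 0.69 (SD, n = 2) and 2.7-fold. Gldc, the decarboxylase of the same system, read 0.16 and -0.06. Of its 7 genes 4 lay below 0 on each array and 0 above. The median was -0.37, or -0.23 without replicate 1 and -0.51 without replicate 2. Among 13 genes of serine uptake, breakdown and use, 7 lay below 0 and 3 above 0 on each array. Their median was -0.24, or -0.30 without replicate 1 and -0.08 without replicate 2. Sfxn1, a mitochondrial serine transporter, had the lowest mean log2 ratio, -0.64 ± 0.44 (SD, n = 2), among those with 1 sign on both arrays, and Sars2, the mitochondrial seryl-tRNA synthetase, the highest with 0.25 ± 0.18 (SD, n = 2).

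The lists that supply nucleotides lay on the negative side. In purine synthesis, whose ring takes carbon from folate, 7 of 10 genes lay below 0 on each array and 0 above, with a median log2 ratio of -0.42. Its lowest gene was Adssl1, an adenylosuccinate synthase, which read -0.74 and -0.93. Of the genes whose enzymes take up carbon from folate, Gart read -0.14 and -0.55, and Atic 0.05 and -0.45. In thymidylate and deoxynucleotide supply, 5 of 6 genes lay below 0 and 0 above, with a median of -0.73. Rrm2, the small subunit of ribonucleotide reductase, read -1.37 and -1.31, and Dut, the dUTP pyrophosphatase, -1.33 and -1.24. Among the 94 genes these 2 alone passed the 2-fold size on each array, and Tyms, which is in this list and in the folate list, did not.

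Methionine cycle and transsulfuration genes, listed with some of polyamine synthesis, were mixed. Of the 13, 4 lay below 0 and 6 above 0 on each array, with a median log2 ratio of 0.03. The share below, 30.8%, was near that of all genes, 33.6%. Odc1, the ornithine decarboxylase of polyamine synthesis, had the lowest mean log2 ratio, -0.93 ± 0.28 (SD, n = 2). Ahcy, a gene of the methionine cycle itself, read -0.55 and -1.19. Mat1a, the adenosylmethionine synthetase known from liver, had the highest, 0.77 ± 0.38 (SD, n = 2). For glutathione synthesis 4 of 6 genes lay below 0 and 0 above, with a median of -0.33, led by the reductase gene Gsr at -0.88 and -0.94.

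Genes of the amino acid response, the stress programme that ATF4 drives and that is known to include serine synthesis genes, lay to either side of 0. Of the 22 in the data, 10 were below 0 and 6 above 0 on each array, and the median log2 ratio was -0.17, or -0.10 and -0.07 on arrays 1 and 2 alone. Atf4 itself read 0.01 on array 1 and -0.91 on array 2. Asns, the asparagine synthetase, read -0.48 and -0.85, a mean log2 ratio of -0.67 ± 0.26 (SD, n = 2). Atf3, the lowest of the list, read -0.06 and -1.77, so its mean log2 ratio of -0.92 ± 1.21 (SD, n = 2) rests on array 2. Trib3, a pseudokinase induced by ATF4, read 0.50 and 0.21. In glycolysis around 3-phosphoglycerate 1 of 8 genes lay below 0 and 2 above 0 on each array, with a median of -0.01. Pgam1, a mutase that acts on 3-phosphoglycerate, was that negative gene, at -0.47 and -0.48, and Eno3, an enolase, the highest at a mean log2 ratio of 0.23.

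**Figure D3:**
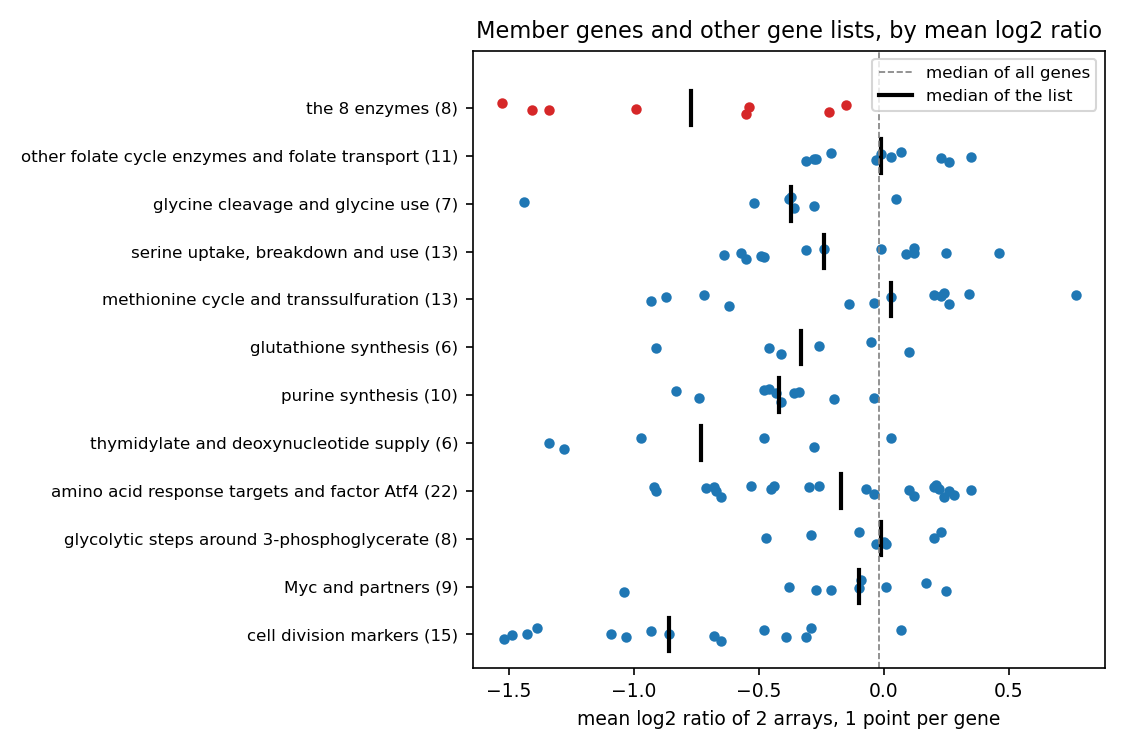
Mean log2 ratio of both arrays (horizontal axis) for each gene of the 8 enzymes (red) and of 11 other lists (blue), 1 point per gene with random vertical scatter, the number of measured genes in brackets, a bar at each list's median and a dashed line at the median of all genes. The medians run from -0.86 for cell division markers, -0.77 for the 8 enzymes and -0.73 for deoxynucleotide supply up to 0.03 for the methionine cycle list.

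Markers of cell division lay on the same side as the 8 enzymes. Of the 15 in the data, 13 (86.7%) lay below 0 on each array and 0 above, against 33.6% and 29.6% of all genes. Of the 15, 4 were at least 2-fold below on each array, against 0.721% of all genes, and the median log2 ratio was -0.86. Mki67, the proliferation marker, read -1.62 and -1.24, Ccna2, a cyclin, -1.52 and -1.53, Bub1, a spindle checkpoint kinase, -1.27 and -1.70, and Ccnb2, another cyclin, -1.62 and -1.16. Their part in the values of the enzymes was not tested. Myc, a growth-driving transcription factor, read 0.30 and -1.05, and its relative Mycn -1.38 and -0.70. Of the 9 Myc family genes and partners 3 lay below 0 on each array and 1, Mxd1 at 0.14 and 0.36, above. The share below, 33.3%, was close to the 33.6% of all genes.

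Markers of other cells that the cultures could hold gave 5 of 8 B cell genes above 0 and 1 below 0 on each array, with means from -0.04 to 1.15, and 3 of 5 NK cell genes below 0 and 1 above, with means from -1.32 to 0.46. Of 8 myeloid genes 2 lay below 0 and 2 above, with means from -0.38 to 0.32, of 4 CD4 T cell genes 0 and 2, and of 2 erythroid genes 0 and 0. Over all genes the shares were 33.6% below and 29.6% above. Of 9 CD8 T cell genes 7 lay above 0 and 1 below, with means from -0.31 to 1.16. Their part in the values of the enzymes was not tested.

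The genes nearest to Psat1, by the distance between their pairs of array values in log2 units, were Bub1 at 0.0906, the cytokine signalling inhibitor gene Cish at 0.13, Tmem273 at 0.163, the kinetochore gene Cenpk at 0.166 and the annexin gene Anxa1 at 0.175. In all 10 genes lay within 0.25 of Psat1. The pair of medians of the 8 enzymes, -0.54 and -1.0, lay in a denser part of the data, with 213 genes within 0.25. The nearest there were Rrp1b, Lasp1, Ruvbl1, Sgf29 and Hsph1, at 0.0112 to 0.032. With 2 arrays of 1 contrast, such nearness describes only these ratios.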

How the data were processed

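The values deposited by the authors, a signed number for every probe on each array, were treated as log2 ratios. No source used here gives the scanner, background correction, normalization or filters behind them, and no intensities were used. Of 21919 probes, 21427 had both values. Probes took the symbol of the platform's annotation where it gave 1 gene, and a gene was the mean of its probes. limma 3.58.1 in R 4.3.3 tested an intercept over both arrays against 0 (two-sided, Benjamini-Hochberg over all probes), after a check on simulated data. The simulated differences were larger than the mean of any member, so the check says nothing of sizes like theirs. The rule of size asked for a 2-fold ratio or more on each array with 1 sign. Promoter windows and gene positions came from RefSeq tables of GRCm38.p6. Windows are oriented along the gene: all 1604 pairs that overlap by 60 bases or more on opposite strands were reverse complements.

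The members and lists were chosen with earlier results of these data known. Named genes were all members, the lowest and highest gene of each list with 1 sign on both arrays, every list gene at least 2-fold on both, a fixed set (Tyms, Mthfd2l, Slc25a32, Gldc, Gcsh, Atf4, Asns, Myc, Mki67, and others not reported here) and the 5 genes nearest to Psat1 and to the members' medians. Alternatives were median centring, quantile normalization, leaving out each array, another rule for several probes, other thresholds, other moderation and natural logs.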

Additional observations from a re-analysis of the deposited data

How the results depend on the processing

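Over the 8 enzymes, the count negative on both arrays was 6, and 7 with median centring or quantile normalization, where Mthfd1l, at 0.00 on array 2, passed to the negative side. The median of the set ranged from -0.79 to -0.75 over those settings, and was -1.0 and -0.54 when each array was left out. Psph was at -0.44 without replicate 1 and turned to 0.14 without replicate 2. No other member changed sign, though Mthfd1l stood at 0.00 without replicate 1. The 94 other pathway genes had a median of -0.22 or -0.15 on the single arrays.

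The 183 probes of any gene at least 2-fold on both arrays became 1003 and 453 on single arrays, 577 if the values are natural logs and 880 at 1.5-fold. limma called 0 probes at an adjusted p of 0.05 in each moderated setting. The smallest adjusted p was 0.162 as reported, 0.0929 with quantile normalization and 0.082 with the robust spread model, so 0.10 gave 0 calls in the reported fit but would not in the other two. An unmoderated test per probe, chosen after seeing the data as were the alternatives for the other lists, called 241 of the 21427 probes. In that test 1535 had an unadjusted p under 0.05. All 241 had identical values on the 2 arrays, so a spread of 0 fixed these calls in advance.

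Without replicates 1 and 2 in turn, the serine use list had a median of -0.30 and -0.08, and the amino acid response list -0.07 and -0.10. Some lists and genes near 0 changed sign. Without replicate 1 and without replicate 2, medians were 0.01 and -0.08 for the folate list, 0.05 and 0.08 for the glycolytic list, 0.08 and -0.07 for myeloid markers and 0.24 and -0.23 for erythroid markers, which were at -0.01 with median centring. In the same order Gldc was at -0.06 and 0.16, Atf4 at -0.91 and 0.01 and Myc at -1.05 and 0.30. Background, dye and dim-probe alternatives were not run, since no intensities were used. The count of 2 arrays limits precision.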
